A study of Rattus norvegicus with 3 samples.

Results

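The nucleus accumbens of high-anxious rats that had received urolithin A was set beside that of untreated low-anxious rats, to ask which transcripts still differ from the low anxiety level after treatment and which sit at it. The comparison takes 2 of the 3 single-nucleus RNA libraries of the series, low anxiety and high anxiety with urolithin A, and the third, untreated high anxiety, serves as a reference point. All 3 libraries come from outbred Wistar rats aged 16 weeks, and each was made from accumbens punches of 5 hemispheres pooled before nuclei were isolated. Rats were sorted into low and high anxiety in the elevated plus maze and the open field, where an unfamiliar object was also used, and part of the high-anxious animals then received urolithin A for 2 months. The other groups were untreated, and dose, route and sex were not given in the sources used here. Because each condition is 1 pooled library, the spread between animals cannot be seen, every interval below covers counting error only, and no p-value is given. Low anxiety and treated rats also differ both in anxiety and in treatment, so the parts of the 2 cannot be told apart here.

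Urolithin A is a compound that gut bacteria make from ellagitannins of pomegranates, nuts and berries, and it is known as an inducer of mitophagy, the removal of damaged mitochondria by autophagy. The accumbens is the ventral part of the striatum and is built mainly of medium spiny neurons, GABAergic projection cells that fall into a direct pathway class with the dopamine receptor Drd1 and an indirect pathway class with Drd2. Mitochondrial function in the accumbens has been tied to anxiety in rats, and medium spiny neurons depend on it for their firing and synapses. Glia share in this metabolism: astrocytes recycle glutamate, oligodendrocytes insulate axons, and microglia clear debris through their lysosomes.

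After filtering, 3379 nuclei of low anxiety, 3694 of high anxiety and 3421 of urolithin A were kept, with medians of 3952, 4549.5 and 4726 UMIs (unique molecules) per nucleus. Classes were set by marker genes of the clusters and are marker-defined and -like throughout, though the suffix is left out below. The classes compared were D1 medium spiny neurons (777 low anxiety, 665 high anxiety and 768 urolithin A nuclei), D2 medium spiny neurons (555, 506 and 529), eccentric medium spiny neurons (260, 310 and 220), GABAergic interneurons (164, 184 and 365), astrocytes (225, 139 and 124), oligodendrocytes (704, 1043 and 924), oligodendrocyte precursors (134, 134 and 140) and microglia (203, 259 and 169). Drd1 set D1 apart from D2 neurons but not from eccentric neurons. It stood at 235, 227 and 201 CPM in D1 neurons, whereas D2 neurons had 11.05, 4.19 and 8.52 CPM and eccentric neurons 286, 232 and 241 CPM (values run low anxiety, untreated high anxiety, urolithin A here and below), where CPM is UMIs per 1000000 UMIs of a class in its library. Libraries shared 4 to 6 barcodes in pairs. A further cluster with markers of eccentric neurons held 103 low anxiety nuclei against 10 high anxiety and 16 urolithin A nuclei, and it was left unnamed.

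The mix of nuclei differed between low anxiety and urolithin A. GABAergic interneurons were 4.85% of low anxiety nuclei (exact binomial interval 4.15% to 5.63%) and 10.7% of urolithin A nuclei (9.65% to 11.8%), while astrocytes were 6.66% (5.84% to 7.55%) and 3.62% (3.02% to 4.31%). Glutamatergic neurons, which belong to neighbouring regions and not to the accumbens, were 2.93% (2.39% to 3.56%) and 0.614% (0.38% to 0.937%), at 99 and 21 nuclei. A cluster led by cell cycle genes held 36 low anxiety and 3 urolithin A nuclei. Astrocyte shares were 6.24% and 6.51% under a stricter filter (nuclei of 1000 genes or more with mitochondrial UMIs of 1% or less), while those of interneurons were 4.88% and 8.27%. What the punches took was not tested.

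A gene counted as measured with at least 100 UMIs in 1 of the 2 libraries, and as away from the low anxiety level when its CPM differed by at least 1.5-fold. It counted as at the level when the whole 95% interval of the ratio lay inside a band of 25% around equality, taken as a ratio of 5 to 4 in either direction. In D1 neurons 314 of 7579 measured genes were away (4.14%), of which 219 were higher in urolithin A (2.89%) and 95 lower (1.253%), and 2632 were at the level (34.7%). D2 neurons had 3.66% of 6177 genes away, with 149 higher (2.41%), 77 lower (1.247%) and 1770 at the level (28.7%). Among 5969 genes of interneurons 4.51% were away, 185 higher (3.1%) and 84 lower (1.41%), and 766 were at the level (12.8%). Among 3350 of eccentric neurons 2.99% were away, 59 higher (1.76%) and 41 lower (1.22%), and 652 were at the level (19.5%). Away genes were thus a small share in each neuron class, and more of them were higher than lower, except in eccentric neurons under the stricter filter. With the minimum of 100 UMIs applied again there, 13 were higher and 27 lower. Of the 59 higher and 41 lower genes of that class, 39 and 23 were still past 1.5-fold on the same side.

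Glia did not share 1 direction. Oligodendrocytes had 2.73% of 4060 genes away, 83 higher (2.04%) and 28 lower (0.69%), and 858 at the level (21.1%). Astrocytes had 6.69% of 971 away, 14 higher (1.44%) and 51 lower (5.25%), and 113 at the level (11.6%). Without nuclei rich in medium spiny neuron markers 20 were lower, and without the 1% of nuclei richest in each gene 30 were. Both counts apply the minimum of UMIs again. Of the 51 lower genes of astrocytes, 31 and 43 were still at least 1.5-fold lower in these settings, in that order. Oligodendrocyte precursors had 4.85% of 804 away, 18 higher (2.24%) and 21 lower (2.61%), and 96 at the level (11.9%). Microglia had 3.3% of 515 away, 7 higher (1.36%) and 10 lower (1.94%), and 78 at the level (15.1%). Higher genes were 46.2% of the precursors' away genes by class totals, 61.1% by a median-ratio scaling and 37.0% by a trimmed-mean scaling. A gene with few UMIs has an interval wider than the band and cannot be counted at the level.

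**Figure D1:**
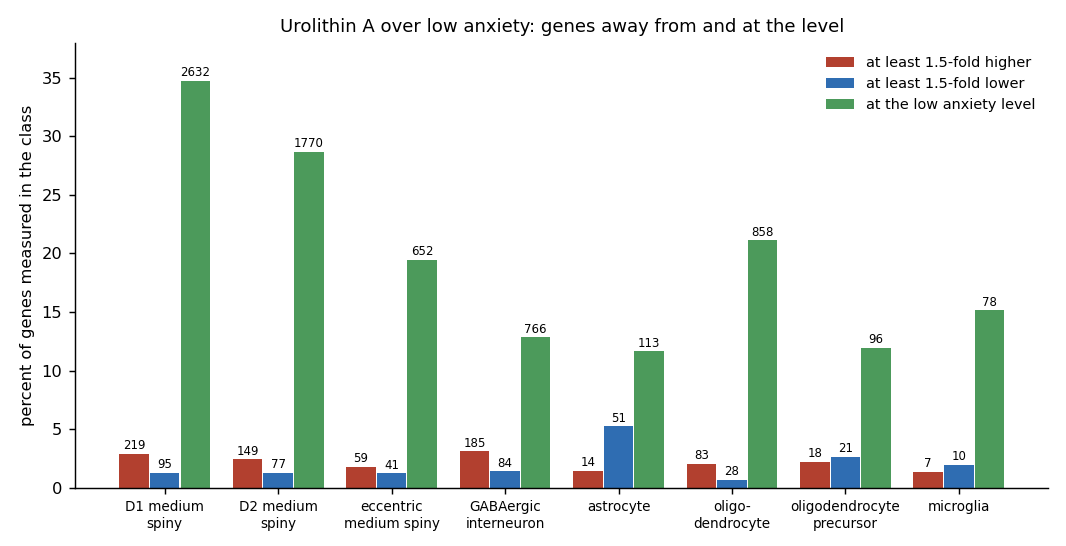
Percent of measured genes per marker-defined class that were at least 1.5-fold higher or lower in urolithin A than in low anxiety, and percent whose 95% interval lay inside the band of 25% around equality. Bars are 1 library over 1 library with no replicate. Astrocytes are the class where lower genes (5.25%) outnumber higher ones (1.44%) most, with 20 lower genes in place of 51 once nuclei rich in medium spiny markers are left out. Of the 51 genes, 31 were still at least 1.5-fold lower without those nuclei.

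Genes already away in untreated high anxiety were followed into the treated library. The low anxiety library is the denominator of both ratios, so anything peculiar to it enters both, and the values are set side by side with no measure of agreement. In D1 neurons 162 genes (2.16% of 7488) were at least 1.5-fold higher in high anxiety, and 104 of them were still at least 1.5-fold higher in urolithin A. The 162 genes had a median log2 ratio over low anxiety of 0.78 in the untreated library and 0.72 in the treated one. None of the 162 met the criterion for the level and 58 lay between. Of them, 68 had counts deep enough for an interval that could fit inside the band, and 48 of the 68 stayed away.

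Genes lower in high anxiety divided differently. Of 218 such genes in D1 neurons (2.91% of 7488), 41 stayed at least 1.5-fold lower in urolithin A, 11 were at the level, 1 was away on the other side and 165 lay between. Counts were deep enough in 115 of the 218 genes, against 68 of the 162 higher ones. Of the 115, 19 stayed away and 11 were at the level. Their median log2 ratio was -0.72 in the untreated library and -0.38 in the treated one, and 86 of the 218 had a ratio inside the band, against 18 of the 162 higher genes. D2 neurons gave similar counts, with 74 of 118 higher genes (1.88% of 6267 measured) and 32 of 152 lower genes (2.43%) still away, and 0 and 11 at the level. Counts were deep enough in 42 of these higher and 67 of these lower genes. Whether the 2 directions differ beyond chance was not tested. Within the largest D1 cluster 49 higher and 14 lower genes stayed away, and under the stricter filter 54 and 39 did. Both settings apply the minimum of UMIs again on fewer nuclei, so fewer genes could be counted.

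The other classes were read in the same way. In interneurons 38 of 159 genes higher in high anxiety (4.07% of 3903) and 16 of 156 lower ones (4.0%) stayed away, while 12 and 26 were at the level. Eccentric neurons kept 54 of 101 higher (2.31% of 4375) and 12 of 67 lower genes (1.53%) away. Astrocytes kept 14 of 27 higher (2.75% of 983) and 36 of 63 lower (6.41%), the highest share among lower genes of any class. Oligodendrocytes kept 61 of 130 higher (2.83% of 4600) and 21 of 45 lower (0.978%), precursors 11 of 24 (2.83% of 848) and 5 of 29 (3.42%), and microglia 12 of 43 (5.0% of 860) and 9 of 24 (2.79%).

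**Figure D2:**
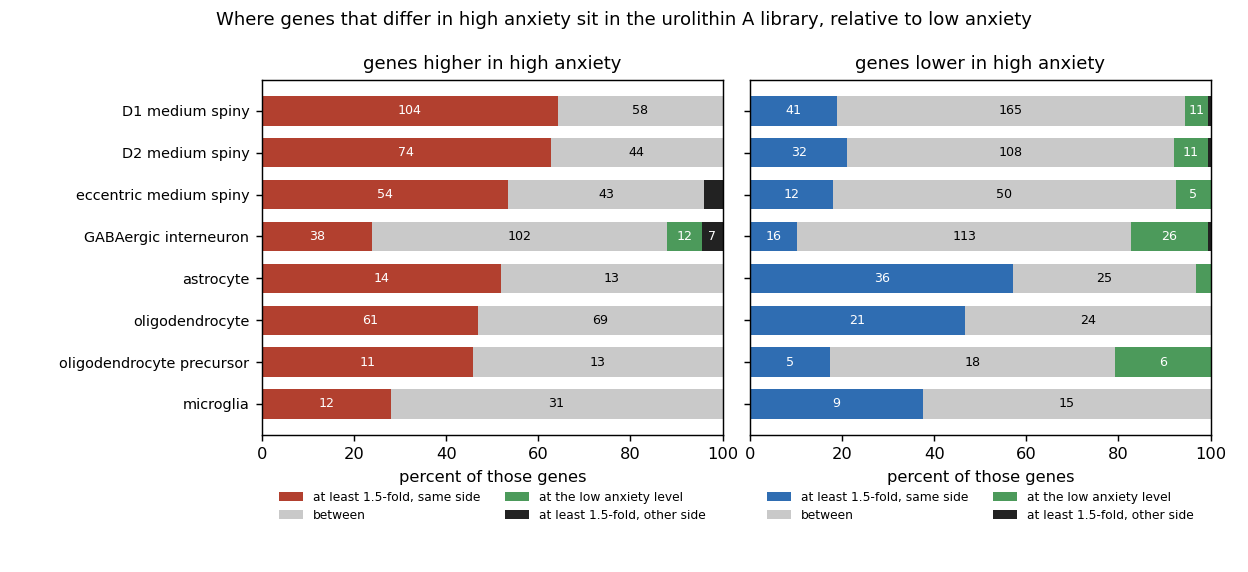
Fate in urolithin A of genes that were at least 1.5-fold higher (left) or lower (right) in high anxiety than in low anxiety, as percent of those genes, with gene numbers in the bars. Both ratios share the low anxiety library. In D1 neurons 104 of 162 higher genes stayed away against 41 of 218 lower genes.

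Several genes were away from low anxiety in many classes at once. Of 6617 genes measured in at least 2 classes, 91 were higher in at least 2, 16 in at least 4 and 3 in 6, and 44 were lower in at least 2 and 2 in 4. Those higher in 6 classes were Kcnq1, which encodes a voltage-gated potassium channel, Sdccag8, which encodes a centrosomal protein of the ciliary base, and RT1-T24-3, a class I gene of the rat major histocompatibility complex. Kcnq1 had 95.1, 158 and 196 CPM in D1 neurons, with D2 neurons at 104, 141 and 196 CPM. It followed the same order in interneurons (105, 195 and 218), precursors (162, 277 and 336) and oligodendrocytes (38.9, 41.1 and 68.7). Treated nuclei were therefore the furthest from low anxiety for Kcnq1 in each of these classes. Eccentric neurons were also higher for Kcnq1 (log2 ratio 1.14), but the order of the libraries there is not given here. A known antisense transcript lies within Kcnq1, and strand use in the counting was not given in the sources used here.

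RT1-T24-3 and Sdccag8 sat in treated nuclei near their untreated high anxiety values. RT1-T24-3 had 105, 208 and 207 CPM in D1 neurons, and precursors had 134, 315 and 267 CPM. It belongs to a multigene family whose members can share reads, so its counts are uncertain. Sdccag8 had 192, 333 and 325 CPM in D1 neurons, 179, 352 and 333 in interneurons and 313, 607 and 485 in astrocytes, while oligodendrocytes (366, 457 and 447) and microglia (236, 392 and 307) were not past 1.5-fold.

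The cytoskeletal gene Filip1l and Nxpe1 were higher in 5 classes, and Ctnna3, Rims3 and Gm17606 in 4. Ctnna3 encodes alpha-T-catenin, which links cadherins to actin. It stood at 177, 501 and 400 CPM in D1 neurons, 168, 465 and 352 in D2 neurons and 109, 182 and 183 in interneurons. Oligodendrocytes expressed it most and were at the level, at 2108, 2260 and 2074 CPM (log2 ratio of urolithin A over low anxiety -0.02, -0.09 to 0.04). Another gene, Lrrtm3, lies within Ctnna3, with the same limit as for Kcnq1. Rims3, which encodes a small presynaptic active zone protein, had 63.3, 131 and 135 CPM in D1 neurons, 62.5, 139 and 141 in D2 neurons and 221, 446 and 417 in microglia.

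Lower in 4 classes were Rbm3 and Apoe. Rbm3 encodes a cold-inducible RNA-binding protein known for protecting synapses, and had 243, 121 and 146 CPM in D1 neurons, 232, 125 and 143 in D2 neurons, 223, 114 and 146 in eccentric neurons and 229, 121 and 153 in interneurons. In each of them urolithin A was a little above high anxiety and well below low anxiety. Oligodendrocytes had 203, 127 and 145 CPM (log2 ratio -0.49), short of the fold. Srsf6, a splicing factor gene, was lower in 3 classes, with 66.4, 38.3 and 41.2 CPM in D1 neurons, 62.2, 36.9 and 40.1 in D2 neurons and 75.2, 49.0 and 38.3 in interneurons.

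Apoe encodes the lipid carrier of astrocytes and microglia, and the classes where it was lower are ones that hardly make it. It had 173, 89.3 and 59.8 CPM in eccentric neurons and 191, 99.8 and 88.4 in oligodendrocytes, beside 27034, 23185 and 31200 CPM in astrocytes. In astrocytes it was at the level (0.21, 0.17 to 0.24). In eccentric neurons 34% of the low anxiety UMIs lay in 5 nuclei, and the ratio moved from -1.53 to -0.30 under the stricter filter, which left the oligodendrocyte ratio of -1.12 at -0.15. The 12 astrocyte markers summed to 394, 462 and 347 CPM in eccentric neurons, with 9 lower and 1 higher in urolithin A than in low anxiety. In oligodendrocytes they summed to 280, 267 and 238 CPM (10 lower, 1 higher). The 12 microglia markers summed to 73.9, 61.2 and 65.2 CPM in eccentric neurons (6 lower, 6 higher). Their sums in oligodendrocytes were 128, 85.3 and 80.4 CPM (10 lower, 2 higher). Droplets carry free RNA from other cells, and the part of that RNA in this result was not tested.

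**Figure D3:**
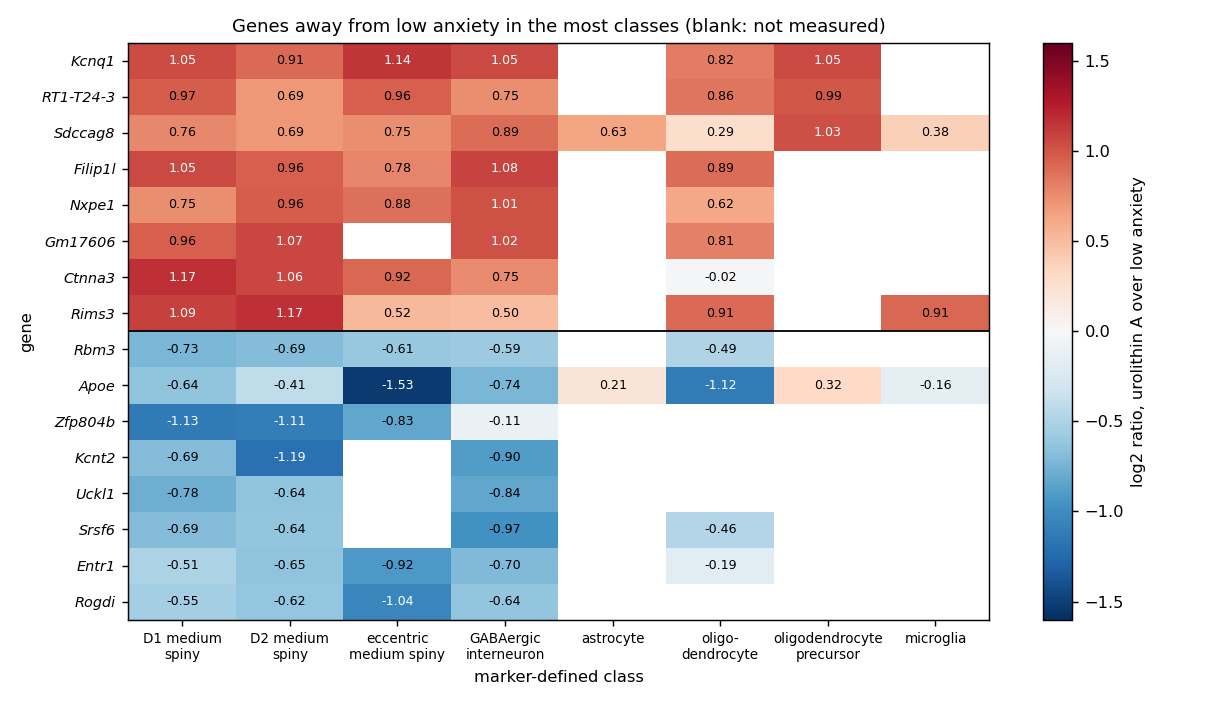
Log2 ratio of urolithin A over low anxiety by class for the first 8 genes in each direction. Genes were ranked by the number of the 8 marker-defined classes where they were higher or lower, and ties by the median log2 ratio. Not all of the 16 genes higher in at least 4 classes and the 12 lower in at least 3 are drawn. Rows above the line were higher, and blank fields were not measured. Kcnq1 lies between 0.82 and 1.14 in its 6 measured classes.

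Promoter sequences of genes in this set are shown because they moved the same way in several cell classes. Of 16 genes looked up, 12 had a single entry in the RefSeq promoter table, which uses the build GRCr8, not that of the counts. A script searched the 250 bases before each start, on both strands, for TGACG (the CRE half-site), GGGCGG (the GC box) and TATAAA (the TATA box), motifs chosen after the sequences had been seen. Each line gives the 150 bases before the start in gene orientation, with TGACG or CGTCA and GGGCGG or CCGCCC in capitals. Hnrnph1 and Clk1, 2 splicing genes of D1 neurons described below, were added after their values were seen.
Rbm3, X:17020755-17020904, + strand: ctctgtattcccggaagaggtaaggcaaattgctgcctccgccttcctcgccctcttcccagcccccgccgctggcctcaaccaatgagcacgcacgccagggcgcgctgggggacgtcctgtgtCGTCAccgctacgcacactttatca
Srsf6, 3:172008922-172009071, + strand: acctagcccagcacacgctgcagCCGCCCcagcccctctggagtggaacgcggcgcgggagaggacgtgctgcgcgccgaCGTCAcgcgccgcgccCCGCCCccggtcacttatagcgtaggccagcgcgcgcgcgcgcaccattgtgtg
Hnrnph1, 10:35194483-35194632, + strand: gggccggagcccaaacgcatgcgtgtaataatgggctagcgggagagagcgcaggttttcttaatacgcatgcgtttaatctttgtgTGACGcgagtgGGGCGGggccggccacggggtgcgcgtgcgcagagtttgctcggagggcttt
Clk1, 9:67453181-67453330, - strand: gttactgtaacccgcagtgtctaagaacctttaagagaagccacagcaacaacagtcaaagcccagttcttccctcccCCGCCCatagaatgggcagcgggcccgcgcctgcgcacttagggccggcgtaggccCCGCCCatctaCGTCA
Ctnna3, 20:25137999-25138148, - strand: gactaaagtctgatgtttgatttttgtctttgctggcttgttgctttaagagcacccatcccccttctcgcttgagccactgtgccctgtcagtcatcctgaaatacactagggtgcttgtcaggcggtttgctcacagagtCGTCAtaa
Rims3, 5:139714170-139714319, + strand: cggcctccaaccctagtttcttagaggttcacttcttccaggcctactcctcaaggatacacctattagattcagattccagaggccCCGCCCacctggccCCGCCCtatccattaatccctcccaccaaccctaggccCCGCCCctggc

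TGACG lay in 3 of the 6 lower genes with an entry (Rbm3, Zfp804b and Srsf6) and in 1 of the 6 higher ones (Ctnna3), where 18.2% of 33469 promoters hold it. GGGCGG lay in 4 of 6 lower and 2 of 6 higher genes, against 30.5% of all promoters, and TATAAA in 1 (Rbm3) and 0, against 12.9%. The printed stretches differ in composition, from 24 CpG and 74% G or C in Srsf6 to 3 CpG and 48% in Ctnna3. These matches describe the letters in the window.

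D1 medium spiny neurons, the direct pathway class, held the largest number of away genes. On the higher side, beside Ctnna3 (log2 ratio 1.17, 1.06 to 1.29), Timp3, an inhibitor of matrix metalloproteinases, had 46.8, 79.2 and 102 CPM (1.12, 0.89 to 1.35). Ak3, which encodes the adenylate kinase of the mitochondrial matrix, had 40.2, 69.7 and 90.3 CPM (1.17, 0.92 to 1.42). Treated D1 nuclei lay above both other libraries for these last genes. Myo3a, a motor protein gene, had 49.9, 116 and 108 CPM and Filip1l 92.0, 186 and 190.5, level with high anxiety. Ada, which encodes adenosine deaminase, had 8.32, 28.4 and 21.4 CPM, with 40, 150 and 114 UMIs (1.36, 0.83 to 1.92).

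A pair of leading genes rest on few nuclei. S100b had 7.28, 5.30 and 25.9 CPM (1.83) and Ndrg2 had 6.87, 4.93 and 19.2 CPM (1.48), and both are genes of astrocytes. Only 5 treated nuclei held 69% of the S100b and 72% of the Ndrg2 UMIs. Without the 1% of nuclei richest in each gene the ratios were 0.46 and -0.031. The 12 astrocyte markers summed to 599, 681 and 521 CPM in D1 neurons, with 4 higher and 8 lower in urolithin A.

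On the lower side, Clstn2, which encodes the synaptic adhesion protein calsyntenin-2, went furthest, at 24.1, 14.8 and 6.02 CPM with 116, 78 and 32 UMIs (-2.0, -2.62 to -1.43). Zfp804b had 73.0, 63.8 and 33.5 CPM (-1.13) and Pld5 22.3, 23.9 and 8.09 CPM (-1.46). Rasgrf2, a Ras exchange factor gene that leads 1 of the 3 D1 clusters, had 45.6, 52.3 and 22.0 CPM (-1.05), but -0.46 in the largest cluster. In high anxiety these last 3 were near low anxiety, so only the treated library stood apart. That D1 cluster held 173 low anxiety and 130 urolithin A nuclei. Within the largest D1 cluster 26 genes were lower, with the minimum of UMIs applied again.

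Other lower genes were low in both high-anxious libraries. Hnrnph1, a splicing regulator, had 131, 88.1 and 73.1 CPM (-0.84, -1.03 to -0.65), and Clk1, a kinase of splicing factors, had 131, 88.3 and 74.5 CPM (-0.81, -0.996 to -0.63). Rbm3 stood at -0.73 (-0.87 to -0.60). Srm, which encodes spermidine synthase, had 25.6, 9.85 and 15.4 CPM (-0.73), and Nsmf, a synapse-to-nucleus messenger gene, 58.7, 33.2 and 31.4 CPM (-0.90). For all of these both high-anxious libraries lay below low anxiety. Thsd7b was also lower over the class (44.7, 19.3 and 25.8 CPM, -0.80), but stood at 0.0082 in the largest D1 cluster. Dpp10, a potassium channel partner, had 1255, 745 and 734 CPM (-0.77), with 21% of the low anxiety UMIs in 5 nuclei and a ratio of -0.34 without the richest 1%.

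Some genes that were low in untreated high anxiety sat at the low anxiety level in treated D1 neurons. Dlk1, a Notch ligand-like gene that helps define the largest D1 cluster, had 45.2, 19.9 and 46.3 CPM (0.03, -0.23 to 0.30). That cluster held 305 of 777, 231 of 665 and 382 of 768 D1 nuclei, and within it Dlk1 stood at -0.34, no longer at the level, against -0.18 over the class with an equal mix of clusters. Pnck, a calcium/calmodulin kinase gene, had 62.6, 32.4 and 66.4 CPM (0.08, -0.14 to 0.31), and Itm2b, which encodes an inhibitor of amyloid processing, 438, 266 and 414 CPM (-0.08, -0.17 to 0.00). In these the treated and low anxiety values were close and high anxiety stood alone. Tac3, the neurokinin B gene, went past the level, at 127, 62.3 and 216 CPM (0.77, 0.63 to 0.91), but stood at 0.34 in the largest D1 cluster and 0.55 with an equal mix. It had UMIs in 143, 73 and 193 D1 nuclei and is also a leading gene of eccentric neurons, where it was at the level (1012, 1014 and 1163 CPM).

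Sparcl1 (42.9, 17.8 and 36.5 CPM, -0.23, -0.52 to 0.06) and Snapin, whose product binds the vesicle SNARE complex (63.9, 24.8 and 45.3 CPM, -0.50, -0.74 to -0.25), lay between. Bcl2, which restrains apoptosis, was 1 of 2 genes higher in urolithin A whose high anxiety value was at the low anxiety level, with 51.6, 51.9 and 84.2 CPM (0.71, 0.48 to 0.94), but 0.34 in the largest cluster. The 3 lower genes of that kind were Col11a1 (95.7, 93.6 and 54.5 CPM), the potassium channel genes Kcnt2 (92.4, 92.1 and 57.3) and Kcnh4 (67.4, 66.3 and 44.4). Here only the treated library differed, and with an equal mix of clusters Col11a1 (-0.56) and Kcnt2 (-0.47) were no longer past 1.5-fold. Fkbp5, the glucocorticoid-induced co-chaperone gene, was at the level (59.5, 65.7 and 58.9 CPM, -0.02, -0.25 to 0.22), as was Ppargc1a, the co-activator of mitochondrial biogenesis (1124, 1164 and 989 CPM, -0.18, -0.24 to -0.13). Ppargc1a was not at the level in D2 neurons (1046, 1061 and 821 CPM, -0.35, -0.42 to -0.28) or eccentric neurons (735, 708 and 578 CPM, -0.35, -0.48 to -0.21). Drd1 itself fell short of that criterion (-0.22, -0.35 to -0.10).

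**Figure D4:**
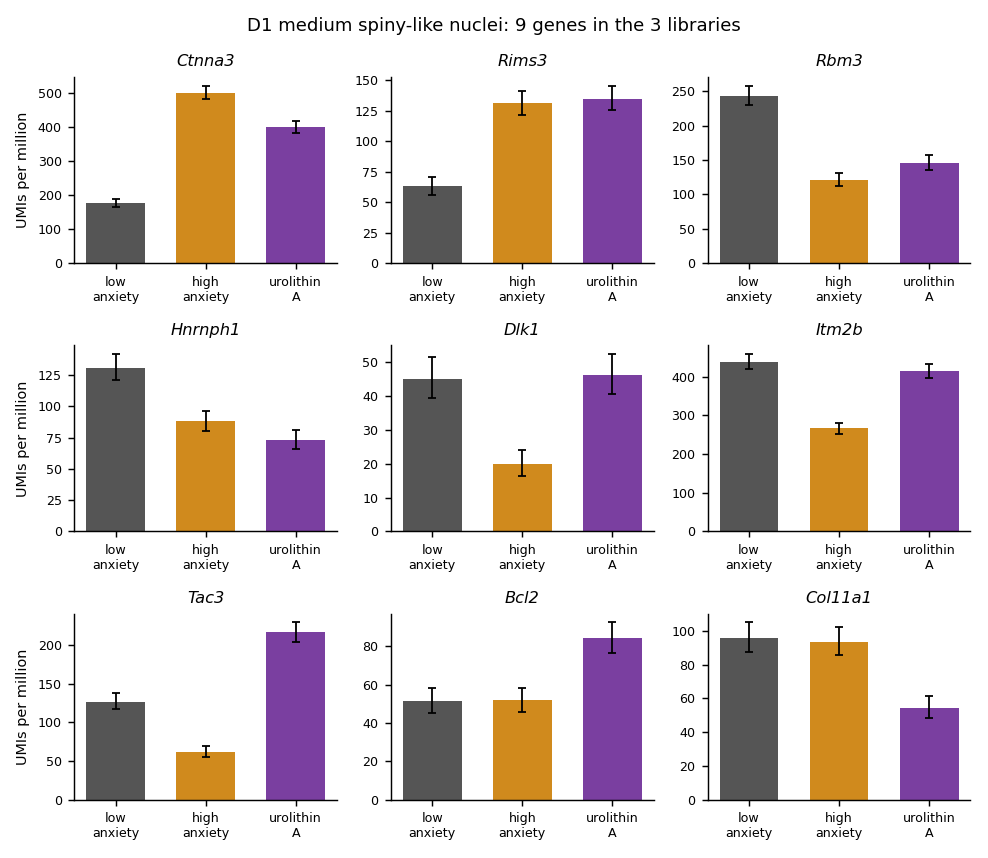
CPM per library in D1 medium spiny neurons for genes that stay away from, sit at or go past the low anxiety level, on a linear axis. Each bar is 1 library and error bars are 95% counting intervals. Ctnna3 (177, 501 and 400 CPM) stays high while Dlk1 (45.2, 19.9 and 46.3 CPM) stands at the low anxiety value over the class, though not within cluster 4, the largest of the D1 class.

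D2 medium spiny neurons, the indirect pathway class, repeated part of this. Gm17606 (27.3, 80.9 and 57.4 CPM, 1.07), the tetraspanin gene Tspan4 (28.8, 72.8 and 54.8 CPM, 0.93) and Myo3a (42.7, 89.8 and 92.0 CPM, 1.11) stayed high with Ctnna3 and Rims3. P2ry14, a receptor gene for UDP-sugars, was highest in the treated library at 96.2, 134 and 193 CPM (1.00, 0.81 to 1.19). Pgrmc1, which encodes a haem-binding progesterone receptor component, had 473, 518 and 736 CPM (0.64, 0.55 to 0.73), with only the treated library apart.

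Abhd14a (46.2, 19.4 and 28.4 CPM, -0.70), Haghl (80.2, 37.4 and 48.6, -0.72) and Shfl, an antiviral gene (129, 63.3 and 83.5, -0.63), stayed low in D2 neurons. Both high-anxious libraries lay under low anxiety for each of these. Slc2a8, a glucose transporter gene (48.0, 27.7 and 25.8 CPM, -0.89), and Snapin (54.1, 30.4 and 32.1 CPM, -0.75) did likewise. Col11a1 (93.6, 60.7 and 42.6 CPM, -1.14), Kcnt2 (55.8, 50.3 and 24.4, -1.19), Otof (84.0, 76.2 and 48.6, -0.79) and Ano4 (79.1, 77.2 and 45.4, -0.80) were lowest in the treated library. Col11a1 and Otof were among the fixed markers of eccentric neurons.

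At the level in treated D2 neurons were Itm2b (252, 155 and 256 CPM, 0.03, -0.11 to 0.16), Tssc4, a spliceosome factor gene (226, 143 and 214, -0.07, -0.22 to 0.07), and Atp6ap1, an accessory subunit of the proton pump that acidifies lysosomes and vesicles (196, 119 and 176, -0.16, -0.32 to 0.00). Calcr, the calcitonin receptor gene and a leading gene of the D2 cluster, went past it at 84.9, 55.8 and 128 CPM (0.59), with 29% of the low anxiety UMIs in 5 nuclei. Drd2 was at the level (527, 568 and 477 CPM, -0.14). Penk, the enkephalin precursor, was too (2236, 2035 and 2545 CPM, 0.19, 0.14 to 0.23).

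The eccentric class, set apart from the classical medium spiny neurons, gave fewer measured genes. Nop56, a ribosome assembly factor gene, had 39.0, 60.2 and 88.2 CPM (1.18, 0.70 to 1.66), highest in the treated library. Rogdi (94.8, 52.9 and 46.0 CPM, -1.04) and the presynaptic scaffold gene Lin7b (103, 55.4 and 63.6, -0.70) stayed low. At the level were Pcsk1n, an inhibitor of prohormone cleavage (914, 569 and 884 CPM, -0.05, -0.16 to 0.07), and the peptide precursor gene Vgf (419, 272 and 389, -0.11, -0.28 to 0.06), with Atp6ap1 (349, 225 and 336, -0.06). In each of these only untreated high anxiety stood low. Epha5, an ephrin receptor gene (286, 262 and 183 CPM, -0.64), and Nell1 (529, 440 and 332, -0.67) were lowest in the treated library. The stricter filter left 13 higher and 27 lower genes in this class.

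GABAergic interneurons had some of the widest ratios. The class held 164, 184 and 365 nuclei. Of these, cluster 10 held 100, 97 and 230, cluster 14 held 37, 65 and 88 and cluster 20 held 27, 22 and 47. Without cluster 10, and with the minimum of UMIs applied again, there were 79 higher and 25 lower genes. Among genes with a symbol, cluster 10 was led by Spp1, Crh and Galr1, with Vip next. Vip, a peptide that marks a subtype of interneuron, had 344 UMIs in 6 low anxiety nuclei, 134 in 5 high anxiety nuclei and 2 in 2 urolithin A nuclei. These are 312, 82.1 and 0.696 CPM, a log2 ratio of -8.81 (-11.86 to -6.94) that rests on those few nuclei. Satb1, a chromatin organiser gene (92.4, 106 and 23.0 CPM, -2.01), Reln, the secreted reelin gene (149, 166 and 47.0, -1.67), and Enpp2, the autotaxin gene (104, 65.5 and 29.3, -1.83), were lowest in the treated library. Grik1, a kainate receptor gene, had 512, 441 and 232 CPM (-1.14, -1.31 to -0.98).

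Higher in treated interneurons were the transcription factor genes Zfhx3 at 88.8, 42.9 and 210.3 CPM (1.24, 0.93 to 1.57) and Zfhx4 at 35.3, 19.0 and 94.7 (1.42), and Tshz2 went past the level at 254, 151 and 392 (0.63). These 3 were low in high anxiety and high in urolithin A. Syt2, the calcium sensor gene of fast release, had 8.15, 50.2 and 41.8 CPM from 9, 82 and 120 UMIs (2.36, 1.38 to 3.52), but -1.22 without cluster 10. Grm8, a presynaptic glutamate receptor gene, had 213, 350 and 368 CPM (0.79). Filip1l (50.7, 137 and 108 CPM) and Sptlc3 (21.7, 82.7 and 55.0), a sphingolipid synthesis gene, stayed high in both high-anxious libraries.

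At the low anxiety level in treated interneurons were genes from both sides of high anxiety. Penk (196, 69.2 and 187 CPM, -0.07, -0.30 to 0.17), Lingo2 (192, 77.8 and 193, 0.01, -0.22 to 0.24) and Nrsn2 (471, 224 and 522, 0.15, 0.00 to 0.29) had been low there. Gria3, an AMPA receptor subunit gene (318, 585 and 300 CPM, -0.08, -0.27 to 0.10), the neuronal RNA-binding gene Elavl2 (260, 445 and 259, -0.01) and the protein kinase C gene Prkca (197, 337 and 186, -0.09) had been high. Untreated high anxiety was the library that stood apart for all 6. Its mix of clusters also differed, with 65 of 184 nuclei in cluster 14 against 37 of 164 in low anxiety and 88 of 365 in urolithin A. The part of this mix in the 6 genes was not tested. Penk moved to -1.06 under the stricter filter, where 5 nuclei of low anxiety had held 51% of its UMIs in the full class. Sst (2305, 2366 and 2488 CPM) and Npy (2603, 2259 and 2201), which mark another interneuron type and were picked after their values were seen, were at the level.

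Transcripts of the mitochondrial genome, which encode core subunits of the respiratory chain and ATP synthase, differed by class. For gene lists a member counted as higher or lower at a difference of 25%, again 5 to 4, which 10.2% and 7.56% of all measured genes met in D1 neurons and 11.4% and 7.25% in D2 neurons. In D1 neurons 9 of 11 measured members were higher and 0 lower (median 0.45, against 0.01 for all genes), and the list summed to 8489.9, 10050.3 and 11289 CPM. In D2 neurons 11 of 11 were higher (median 0.77), with sums of 6859, 8458 and 11007 CPM. The treated library was thus the furthest from low anxiety in both. Mt-atp6, an ATP synthase subunit, led with 1138, 1621 and 1922 CPM in D1 neurons (0.76, 0.71 to 0.80) and 892, 1375 and 1862 in D2 neurons (1.06, 1.00 to 1.12).

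Mt-cyb, of complex III, had 934, 1021 and 1496 CPM in D2 neurons (0.68, 0.62 to 0.74), so that high anxiety sat at the low anxiety level and the treated library did not. Interneurons had 8 of 11 members higher (median 0.43, sums 12120.5, 11925 and 15869 CPM), and eccentric neurons 4 of 11 (median 0.25). All-gene rates past 25% were 12.9% higher and 8.48% lower in interneurons and 10.1% and 8.42% in eccentric neurons.

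Astrocytes went the other way, with 0 of 8 measured members higher and 8 lower (median -0.87, all-gene rates 7.21% and 15.1%), and sums of 10491, 6029.9 and 5868 CPM. Mt-nd2, of complex I, had 1003, 520 and 465 CPM there (-1.11, -1.38 to -0.85). Microglia had 6 of 8 lower (median -0.41, rates 10.3% and 8.74%, sums 12162, 7658 and 8976 CPM), and oligodendrocytes 4 of 11 lower (median -0.28, rates 9.63% and 4.68%, sums 18599.7, 17435 and 15517 CPM). By these sums the untreated high anxiety library was also below low anxiety in both types. Precursors sat at the low anxiety level for 5 of 8 members (median 0.02, rates 12.7% and 14.8%), with Mt-co3 at 2027, 1181 and 2073 CPM and Mt-nd4 at 1286, 762 and 1289, where high anxiety alone was low.

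The mitochondrial share of a nucleus, which reflects how much cytoplasm stays attached to it as well as transcription, moved with these lists. Its median was 0.611% (low anxiety) and 0.905% (urolithin A) in D1 nuclei, 0.518% and 0.893% in D2 nuclei, and 0.846% and 0.427% in astrocytes. The stricter filter, which acts on that share itself, gave list medians of 0.21 in D1 and 0.26 in D2 neurons and -0.45 in astrocytes. It turned the direction in eccentric neurons (-0.23) and interneurons (-0.16), and precursors stood at -0.44. With doublets kept the astrocyte median was -0.38. Markers of oligodendrocytes, whose nuclei had 1.599% and 1.135% mitochondrial UMIs in the median, summed to 161, 199 and 218 CPM in D1 neurons (9 of 12 higher in urolithin A, 3 lower, none at 0 in both) and to 385, 410 and 806 CPM in astrocytes (11 higher, 1 lower), and their part in the result was not tested.

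**Figure D5:**
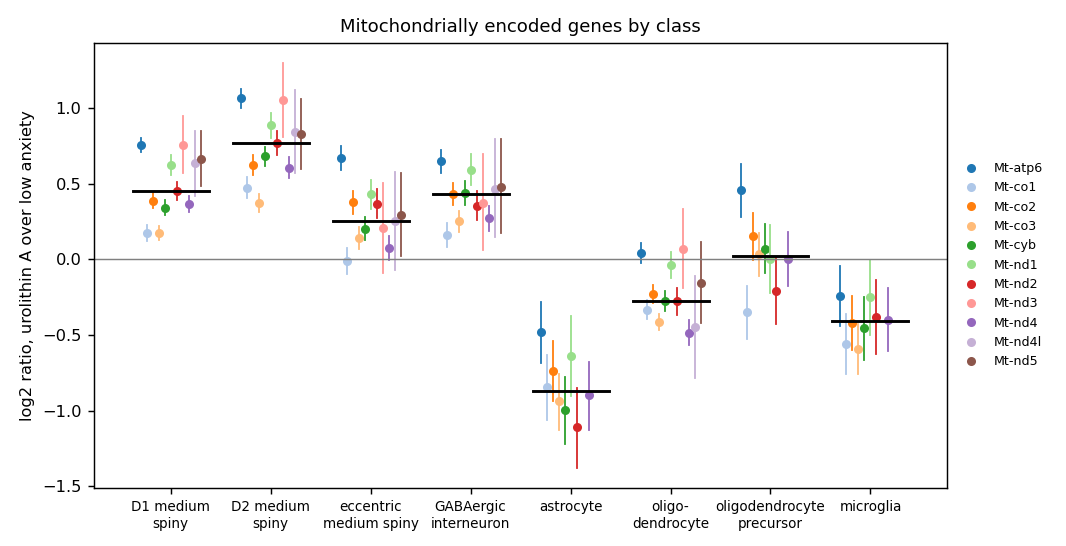
Log2 ratio of urolithin A over low anxiety for each measured mitochondrially encoded gene, by class, with 95% counting intervals. Points lie above 0 for all 11 genes in D2 neurons and below 0 for all 8 in astrocytes.

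Nuclear genes for the same complexes moved less. Complex I subunits had 9 of 31 higher and 0 lower in D1 neurons (median 0.12) and 9 of 27 higher and 0 lower in D2 neurons (median 0.16). Ndufa4 stood at 122, 144 and 189 CPM in D1 neurons (0.63, 0.48 to 0.78) and 126, 125 and 166 in D2 neurons (0.40), and Ndufc2 at 152, 183 and 218 in D1 neurons (0.52). Subunits of complexes II to V had 5 of 35 higher and 0 lower in D1 neurons (median 0.14). Mitochondrial ribosomal proteins did not follow, with 3 of 34 higher and 5 lower in D1 neurons (median -0.08), among them Mrpl17 (56.6, 28.8 and 36.7 CPM, -0.63) and Mrps26 (57.2, 29.6 and 37.4, -0.61), which were low in both high-anxious libraries.

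Mitophagy and autophagy genes, the process urolithin A is known to induce, had list medians near 0 in D1 and D2 neurons. In D1 neurons 3 of 23 measured were higher, 1 lower and 9 at the level (median 0.04), and in D2 neurons 3 of 20 were higher and 2 lower (median 0.03). Bnip3, a mitophagy receptor gene, had 15.2, 21.2 and 22.2 CPM in D1 neurons (0.55, 0.11 to 0.99), and Usp30, a deubiquitinase that opposes mitophagy, had 119, 144 and 158 (0.40, 0.25 to 0.56). Atg16l1 was lower in D1 (77.2, 76.4 and 59.2 CPM, -0.38) and D2 neurons (82.0, 82.5 and 61.1, -0.42), and Fkbp8, another mitophagy receptor gene, was away in 3 classes, in D2 neurons (81.4, 56.8 and 52.8, -0.62), eccentric neurons (82.9, 60.2 and 45.2, -0.87) and interneurons (84.2, 50.2 and 55.4, -0.61). Pink1, which flags damaged mitochondria, had only 17, 18 and 23 UMIs in D1 neurons, too few to measure.

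Cytosolic ribosomal protein genes leaned higher: D1 neurons had 35 of 59 higher and 1 lower (median 0.40, 0.11 in high anxiety), and D2 neurons had 23 of 50 higher and 0 lower (median 0.29, 0.01 in high anxiety). Rps3a had 23.9, 30.1 and 47.2 CPM in D1 neurons (0.98, 0.66 to 1.31) and 21.5, 24.9 and 40.6 in D2 neurons (0.92). Rplp1 had 57.0, 67.4 and 102 CPM in D1 neurons (0.83, 0.62 to 1.05). The treated library lay furthest out here. In oligodendrocytes 20 of 48 were higher and 1 lower, with a median of 0.25 that lay under the 0.42 of high anxiety, while interneurons had 9 of 42 higher and 4 lower (median 0.02). Ribosomal protein genes have many processed pseudogenes, so their counts are uncertain.

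Most measured genes of the synaptic lists met the criterion for the low anxiety level in D1 neurons. Of 20 glutamate receptor genes 15 were at the level, 0 higher and 3 lower, led by Grm8 (39.1, 40.0 and 28.4 CPM, -0.46) and the NMDA subunit gene Grin2a (343, 397 and 254, -0.43). Postsynaptic scaffold and adhesion genes had 19 of 29 at the level, presynaptic release genes 19 of 27, and sodium and calcium channel genes 20 of 27, where 34.7% of all D1 genes were. Genes with many UMIs meet this criterion more readily, and these lists were not compared with genes of like depth. Of 28 potassium channel genes 4 were higher and 2 lower, with Kcna4 at 171, 228 and 240 CPM (0.49).

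Neuropeptide and granin genes, low in untreated high anxiety of D1 neurons (median -0.38), had a median of -0.01 in urolithin A, with 8 of 17 at the level, 3 higher and 3 lower. Chga, the chromogranin A gene of secretory granules, had 253, 178 and 358 CPM in D1 (0.50) and 319, 265 and 435 in D2 neurons (0.45), and so stood above its low anxiety value. Penk, an indirect pathway peptide gene, was lower in D1 neurons at 57.6, 36.0 and 32.3 CPM (-0.83). Among dopamine and opioid genes 11 of 21 were at the level, and Oprm1, the mu opioid receptor gene, had 63.3, 70.9 and 82.7 CPM in D1 (0.39) and 49.1, 55.0 and 69.0 in D2 neurons (0.49). Immediate early genes, which report recent activity, had 4 measured in D1 neurons and 3 higher, with Nr4a3 at 14.98, 24.6 and 24.4 CPM (0.71). In D2 neurons 0 of 2 were higher and 1 was lower (median -0.12), and the 1 measured gene stood at -0.32 in eccentric neurons and -0.16 in interneurons.

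In astrocytes the higher genes included Glul, which encodes the glutamine synthetase that recycles glutamate, at 258, 402 and 453 CPM (0.81, 0.47 to 1.16). Fth1, the ferritin heavy chain gene (214, 355 and 382 CPM, 0.84), and Efcab3 (157, 380 and 388, 1.30) were high in both high-anxious libraries too. Aqp4, the water channel gene, was highest in the treated library at 545, 467 and 759 CPM (0.48, 0.23 to 0.73). Of 22 measured genes of astrocyte homeostasis 4 were higher, 2 lower and 6 at the level (median 0.03). Agt, the angiotensinogen gene and a leading gene of the cluster, was at the level (1158, 619.99 and 1221 CPM, 0.08, -0.11 to 0.26), as was Itm2b (2062, 1299.98 and 1835, -0.17).

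Among the 51 lower genes of astrocytes were genes known from neurons, beside mitochondrially encoded ones. Rbfox1, a neuronal splicing factor gene, had 816, 137 and 103 CPM (-2.99), Kcnq5 389, 77.5 and 61.8 (-2.66), the striatal phosphodiesterase gene Pde10a 212, 42.5 and 20.6 (-3.37) and Grm7, from 101, 8 and 1 UMIs, 199, 20.0 and 2.94 (-6.08, -11.39 to -3.57). Only low anxiety stood apart. In it 5 nuclei held 78% of the Rbfox1 and 87% of the Pde10a UMIs. The 10 shared medium spiny markers summed to 2937, 1945 and 1974 CPM in astrocytes, with 2 higher and 8 lower, and 5 of 225 low anxiety astrocyte nuclei but 0 of 124 treated ones took over 0.75% of their UMIs from these markers.

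Most measured myelin and maturation genes met the criterion for the low anxiety level in oligodendrocytes. Of 29 measured, 19 were at the level, 4 higher and 1 lower (median -0.02). Over all genes of the class these shares were 21.1%, 9.63% and 4.68%. The list summed to 76262, 73069 and 75317 CPM. Genes with many UMIs meet the criterion more readily, and genes of like depth were not compared. Mal, a myelin lipid raft protein gene, had 4079, 5742 and 5453 CPM (0.42, 0.37 to 0.46) and the lineage factor gene Sox10 316, 393 and 407 (0.36), while Hapln2, which links matrix at the nodes of Ranvier, had 2176, 1832 and 1708 (-0.35). The treated values of Mal and Sox10 were near those of high anxiety. Tpt1, a translation-linked gene (86.4, 175 and 152 CPM, 0.82), Emc8, of the membrane protein insertion complex (79.9, 144 and 144, 0.85), and Cd180, a Toll-like receptor relative (25.9, 52.4 and 61.7 CPM), stayed high.

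Genes known from neurons were among the 28 lower ones in oligodendrocytes. Nrg3 had 105, 27.8 and 26.7 CPM (-1.98), Tenm2 84.2, 32.5 and 21.5 (-1.97), Nrxn3 178, 83.0 and 59.4 (-1.59) and Syt1 81.3, 29.3 and 27.6 (-1.56), and low anxiety was again the library apart. Unlike the astrocyte genes these UMIs were spread out, with 11% to 26% of those in low anxiety in 5 nuclei. Medium spiny markers summed to 1622, 1564 and 1479 CPM (1 of 10 higher, 9 lower) and glutamatergic markers to 23.7, 15.7 and 3.27 CPM (1 of 9 higher, 6 lower, Neurod2 and Emx1 at 0 in both libraries), and their part was not tested. With doublets kept 221 genes were lower in place of 28. Within the largest oligodendrocyte cluster, with the minimum of UMIs applied again, 41 were higher and 10 lower.

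Oligodendrocyte precursors had more chaperone transcripts in the treated library. Of 7 measured heat shock and chaperone genes 5 were higher and 0 lower (median 0.40). Over all 804 measured genes of the class 12.7% were higher and 14.8% lower at this fold. Hspa5, the main chaperone of the endoplasmic reticulum, stood at 359, 453 and 485 CPM (0.43, 0.11 to 0.75) and Calr at 704, 935 and 930 (0.40). Flrt1, an adhesion gene of axon guidance, had 233, 478 and 527 CPM (1.18, 0.82 to 1.55), and Cd9, a tetraspanin gene, 2725, 3254 and 4225 (0.63, 0.52 to 0.74). Sodium and calcium channel genes leaned lower, 6 of 11 (median -0.34), led by Cacna1e (372, 304 and 252 CPM, -0.56). Kcnip4 had 291, 158 and 69.3 CPM (-2.07), with 53% of the low anxiety UMIs in 5 nuclei. Medium spiny markers summed to 2212, 1767 and 1640.2 CPM, with 1 of 10 higher and 9 lower, and their part was not tested. Under the stricter filter, with the minimum of UMIs applied again, 3 genes were higher and 9 lower.

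Microglia had lower lysosomal transcripts. Of 14 measured lysosomal genes 6 were lower, 0 higher and 4 at the level (median -0.29). Over all 515 measured genes of the class these shares were 8.74%, 10.3% and 15.1%. Grn, which encodes progranulin, had 1451, 927 and 919.7 CPM (-0.66, -0.87 to -0.45), the cathepsin gene Ctsb 1769, 1295 and 1306 (-0.44) and Psap, the saposin precursor gene, 3103, 1898 and 2278 (-0.45). Low anxiety was the highest library for each of them. Pltp, a lipid transfer protein gene (2166, 1311 and 1419 CPM, -0.61), and Cfb, complement factor B (458, 274 and 267, -0.78), followed the same order. Of 15 homeostatic genes 6 were at the level, with Tmem119 (736, 1007 and 1009 CPM, 0.45) and Selplg (2042, 2447 and 2692, 0.40) higher.

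Cd74, the invariant chain gene of antigen presentation, had 351, 88.1 and 230 CPM in microglia (-0.61), but 5 nuclei held 79% of the low anxiety UMIs and the ratio was 0.060 without the richest 1%. C1qa, of the complement C1 complex and picked after its value was seen, was at the level (7705, 7901 and 8231 CPM, 0.10, 0.02 to 0.17). Complement and activation genes as a list had 3 of 14 lower, 0 higher and 6 at the level (median -0.07), where all genes of the class had 8.74%, 10.3% and 15.1%. Under the stricter filter 4 genes were higher and 4 lower in microglia, from 51 low anxiety and 86 urolithin A nuclei.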

How the data were processed

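Nuclei of accumbens punches were profiled with the 10x 3' chemistry version 3.1, per the labels' protocols, and counting used Cell Ranger 7.1.0 (per the file headers) on mRatBN7.2, the build that the submitters' processing notes name. The deposited files hold UMI counts per gene and nucleus, not normalized by the authors; strand and intron use was not given in the sources used here. Of 23098 features 1814 had no symbol and 194 symbols stood on several identifiers.

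Kept nuclei had 500 genes or more and mitochondrial UMIs of 5% or less, and the highest doublet scores (0.8% per 1000 nuclei) were removed: 97 of low anxiety, 116 of high anxiety and 99 of urolithin A. The 3 libraries were clustered together (scanpy 1.11.5, leidenalg 0.10.2; 2000 variable genes, 30 components, 15 neighbours, resolution 1, seed 7) into 23 clusters. A cluster took a class name with at least 3 markers at 2-fold, 20 UMIs and 10 CPM. Rules that left clusters unnamed for more than 75% of nuclei in 1 library, or for leading genes of another class, were set after the clusters had been seen. Doublet scores can miss doublets of similar nuclei.

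UMIs were summed by class and library and scaled to 1000000 per class and library (CPM). Ratios carry 95% intervals from the exact conditional binomial distribution (scipy 1.17.1, python 3.11.15), which cover counting error only. A gene was at the level when that interval lay within 1.25-fold of 1, and list members were counted as higher or lower at 1.25-fold. With 1 library per group no test was run and n is 1. Classes needed 50 nuclei in both libraries. Named genes were, per class, the furthest from low anxiety in each direction (8 in D1 and D2 neurons, 4 elsewhere), ranked by the interval bound nearer to 0; per class and side the 3 furthest in high anxiety that stayed away or sat at the level; the 8 genes away in most classes per direction; up to 4 members of each gene list; and 12 genes chosen by name. Genes past the level or apart in the treated library only were added after their values were seen. The class comparison, markers, lists and named genes were chosen with earlier results of these data known. Alternatives covered the count minimum, scaling, nucleus weighting, nucleus filter, doublets and clusters. The count procedure was tested on simulated data. Figures were drawn with matplotlib 3.10.9.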

Additional observations from a re-analysis of the deposited data

Results flagged for a closer look

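Some genes were at least 1.5-fold higher in urolithin A than in low anxiety in 1 class and at least 1.5-fold lower in another, and each is given because its direction was opposite in a pair of classes. None of these differences between classes was tested, since each class is 1 library over 1 library. Mitochondrially encoded genes were higher in D2 neurons and lower in astrocytes: the log2 ratio was 0.88 and -0.64 for Mt-nd1, 0.77 and -1.11 for Mt-nd2, 0.61 and -0.90 for Mt-nd4, 0.68 and -0.997 for Mt-cyb, and 0.62 and -0.74 for Mt-co2.

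Tac3, the neurokinin B gene, stood at 0.82 in D2 neurons, where 5 nuclei held 58% of the treated UMIs, and at -0.59 in GABAergic interneurons. Adarb2, an RNA editing enzyme homologue used as a marker of eccentric neurons, stood at 1.04 in D2 neurons and -0.60 in interneurons. Ephb1, an ephrin receptor gene, stood at 0.70 in interneurons and -0.86 in astrocytes. Esrrg, a nuclear receptor gene of energy metabolism, stood at 0.66 in interneurons and -0.68 in D2 neurons. Tmem196 stood at 0.66 in oligodendrocyte precursors and -0.96 in D1 neurons.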

How the results depend on the processing

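The count minimum moved the counts of away genes. In the order higher then lower, a minimum of 50 UMIs gave 376 and 176 genes in D1 neurons, 310 and 193 in D2 neurons, 165 and 139 in eccentric neurons, 397 and 200 in interneurons, 66 and 136 in astrocytes, 198 and 114 in oligodendrocytes, 126 and 68 in precursors, and 47 and 53 in microglia. A minimum of 200 UMIs gave, in the same order of classes, 104 and 34, 71 and 30, 18 and 9, 65 and 31, 3 and 20, 25 and 9, 3 and 3, and 1 and 3. Without a minimum these were 1593 and 985, 1533 and 1050, 1348 and 1267, 1543 and 1406, 1418 and 1981, 1179 and 1441, 1890 and 1544, and 1604 and 1718. Genes higher and lower in high anxiety that stayed away numbered 191 and 71 in D1 and 144 and 75 in D2 neurons at 50 UMIs, 52 and 18 and 41 and 13 at 200, and 885 and 498 and 828 and 494 without a minimum. In precursors the median of the list of microglia activation and complement was 0.37, and -0.26 without a minimum.

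Under the stricter filter, which acts directly on mitochondrial transcripts, D1 neurons had 95 higher genes and 54 that stayed higher, and D2 neurons 88 higher, 1086 at the level and 47 that stayed higher. Eccentric neurons had 13 higher, 27 lower and 202 at the level, and interneurons 109, 43 and 229. Astrocytes had 26 lower and 66 at the level, and oligodendrocytes 54 higher and 160 at the level. Precursors had 3 higher, 9 lower and 36 at the level, and microglia 4, 4 and 30. These counts apply the minimum of UMIs again on fewer nuclei. Of the 219 higher and 95 lower genes of D1 neurons, 153 and 72 were still past 1.5-fold on the same side. In D2 neurons 118 of 149 and 50 of 77 were, and in interneurons 124 of 185 and 58 of 84. Microglia kept 2 of 7 higher and 2 of 10 lower genes. The mitochondrial list had medians of 0.21 in D1, 0.26 in D2 and -0.23 in eccentric neurons, -0.16 in interneurons, -0.45 in astrocytes and -0.44 in precursors, so the direction turned in eccentric neurons (from 0.25), interneurons (from 0.43) and precursors (from 0.02). In interneurons Mt-atp6 stood at -0.0080 and the median of astrocyte homeostasis genes at 0.040, against -0.37.

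Within the largest cluster of a class, with the count minimum applied again, D1 neurons had 26 lower genes and 1113 at the level. There 49 higher and 14 lower genes stayed away, and Thsd7b stood at 0.0082. Interneurons then had 363 at the level, and oligodendrocytes 41 higher, 10 lower and 236 at the level, with a mitochondrial median of -0.15. With doublets kept there were 24 higher genes in astrocytes with a mitochondrial median of -0.38, 221 lower in oligodendrocytes, 31 higher in precursors, where Phactr1 stood at 0.17 against -0.71, and 29 lower in microglia. Without the 1% of nuclei richest in a gene 30 genes were lower in astrocytes and 16 in oligodendrocytes, with the count minimum applied again. Of the 51 and 28 lower genes of these classes, 43 and 26 were still at least 1.5-fold lower. In the same setting Ndrg2 stood at -0.031 in D1 neurons and Cd74 at 0.060 in microglia. Leaving out the richest nuclei, the next 3 alternatives, the equal mix of clusters and the totals without mitochondrial genes were chosen after seeing the data. Glial nuclei low in medium spiny markers gave 20 lower genes in astrocytes, and 31 of the 51 lower genes were still at least 1.5-fold lower in them. Adding the unnamed clusters gave 95 lower genes in eccentric neurons. Without cluster 10 interneurons had 79 higher, 25 lower and 191 genes at the level, and Syt2 stood at -1.22.

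With each nucleus weighted equally 54 genes lower in high anxiety stayed lower in D2 neurons. Trimmed-mean and median-ratio scaling, totals without mitochondrial genes and an equal mix of clusters left each count of genes away, at the level or staying away within 1.5 times. Where no cause is given, the cause was not tested. No paired analysis was possible because each group is 1 library.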
